A study of Homo sapiens with 6 samples.

Results

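The genes described here copy the genome and govern entry into S phase. They were chosen by name as 44 DNA replication and G1/S genes, and 43 of them were among the 10487 genes of the deposited table, RB1 being the one not analysed here. RNA was measured in MDAMB468 cells, a line grown from a human triple negative breast tumour, known to carry amplified EGFR and to lack functional RB1. The IGFBP2 overexpression group (3 libraries, genotype given as IGFBP2 overexpression) carried a dCas9-VPH activator and a guide RNA that brought it to IGFBP2. Both were delivered stably by lentivirus. Blasticidin selected for the activator, and a further selection preceded sorting for the fluorescent marker of the guide. The control group (3 libraries, genotype given as WT) was the same cell line. Apart from such selection, neither group received a drug. Whether the controls carried the activator is not stated in the sources used here, so effects of transduction, selection or the activator cannot be told apart from effects of IGFBP2. The replicates are given as biological replicates of 1 line per group, so the p-values measure the spread between those cultures.

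All 11 markers of the line that were examined, among them EGFR, EPCAM and KRT5, were in the table, against 1 of 11 markers of other cells, COL1A1, at 9.36 to 27.5 CPM, the unit for reads scaled to the size of the library. IGFBP2, the activated gene, was at 93.5, 87.3 and 136 CPM in the controls and at 566, 1176 and 498 CPM in the overexpression libraries. Its log2 fold change was 2.73 with a standard error of 0.33. In limma's moderated test over all genes, adjusted by Benjamini-Hochberg, its adjusted p was 0.0148. Reads were counted at the 3′ end of transcripts, and 2497353 to 4579587 reads per library fell on the listed genes. In such bulk RNA, fewer cells in a phase of the cycle and less RNA per cell cannot be told apart.

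DNA replication is prepared in G1, when the origin recognition complex with CDC6 and CDT1 loads the MCM2 to MCM7 helicase onto origins. At the start of S phase CDC45 and the GINS complex join the helicase, and polymerases then copy the strands while the PCNA ring, placed by the RFC loader, holds them on DNA. Cyclin D with CDK4 or CDK6 and cyclin E with CDK2 release E2F transcription factors from RB1 and related proteins, and E2F in turn drives many of the replication genes and the enzymes that make deoxynucleotides.

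Many of these genes share E2F-type letters near their start. RefSeq promoters (GRCh38.p14, 250 bases before to 50 after the start) were searched on both strands for TTTCGCGC, TTTGGCGC and TTTCCCGC, which can overlap one another. At least 1 of them was in 19 of 36 measured members with a promoter entry (52.8%) and in 902 of 27305 genes overall (3.30%). MCM4, MCM5, POLD3, RPA2, CCNE2, CCND1 and CDK2 had no entry. Among the other pathway genes with an entry, the share was 33.3% of 30 further replication factors and 11.5% of 26 mitotic genes. The windows below show one match each in 10 of the 19 genes, chosen to span several roles. Not every gene of a role has one: ORC1, ORC6, RFC2, RFC4 and RFC5 were without a match in their entry. Capitals mark the match, which reads as the reverse complement (GCGGGAAA or GCGCCAAA) where the motif lies on the other strand.
E2F1: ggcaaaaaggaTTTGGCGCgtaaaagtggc
CDC6: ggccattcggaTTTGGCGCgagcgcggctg
MCM2: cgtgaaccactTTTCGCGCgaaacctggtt
MCM3: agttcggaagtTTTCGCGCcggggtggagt
MCM6: cattggtcaggTTTGGCGCgaaatctccag
MCM7: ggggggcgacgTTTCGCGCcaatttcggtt
PCNA: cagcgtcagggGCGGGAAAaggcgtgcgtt
RFC3: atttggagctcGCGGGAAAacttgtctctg
TYMS: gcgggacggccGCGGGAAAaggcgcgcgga
POLA1: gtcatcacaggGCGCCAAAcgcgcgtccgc
These windows lie at chr20:33686387-33686416 (minus strand) for E2F1, chr17:40287875-40287904 (plus) for CDC6, chr3:127598402-127598431 (plus) for MCM2, chr6:52284728-52284757 (minus) for MCM3 and chr2:135876515-135876544 (minus) for MCM6. Those of MCM7, PCNA, RFC3, TYMS and POLA1 lie at chr7:100101388-100101417 (minus), chr20:5126663-5126692 (minus), chr13:33818083-33818112 (plus), chr18:657603-657632 (plus) and chrX:24693770-24693799 (plus). In MCM2 and MCM6 the printed match overlaps a further TTTCGCGC on the opposite strand. The match is close to the transcription start in E2F1, where its first base is at position -20, and in MCM3 and MCM7, where it is at -4 and -9. In POLA1 the match is farther upstream, at -137. A match is a sequence of letters, and binding of E2F was not measured.

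As a module, the replication and G1/S genes did not separate the groups. With limma across all 10487 genes, 0 of the 43 members had an adjusted p under 0.05, while 0.629% of all genes did (0.429% higher and 0.2% lower). The paper's edgeR analysis reported many more genes at an FDR under 0.05 than the 66 called here. The count of 0 therefore belongs to the limma test used. At an unadjusted limma p under 0.05 there were 5 members, 4 higher and 1 lower in IGFBP2 overexpression cells. That is 11.6% of the members against 13.0% of all genes (6.88% higher and 6.12% lower). The median log2 fold change was 0.10 over the members and 9.82e-05 over all genes, and 29 members were above 0 and 14 below. The 95% interval lay within a 2-fold change in either direction for 34 of the 43 members (79.1%, against 77.3% of all genes), so for these genes a change of 2-fold or more was outside the interval. For the other 9 the data leave a 2-fold difference within the interval, upward for CCND1, CCNE1, E2F1, TK1 and RRM2, and downward for RFC3, POLD3, UHRF1 and CCNE2.

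**Figure D1:**
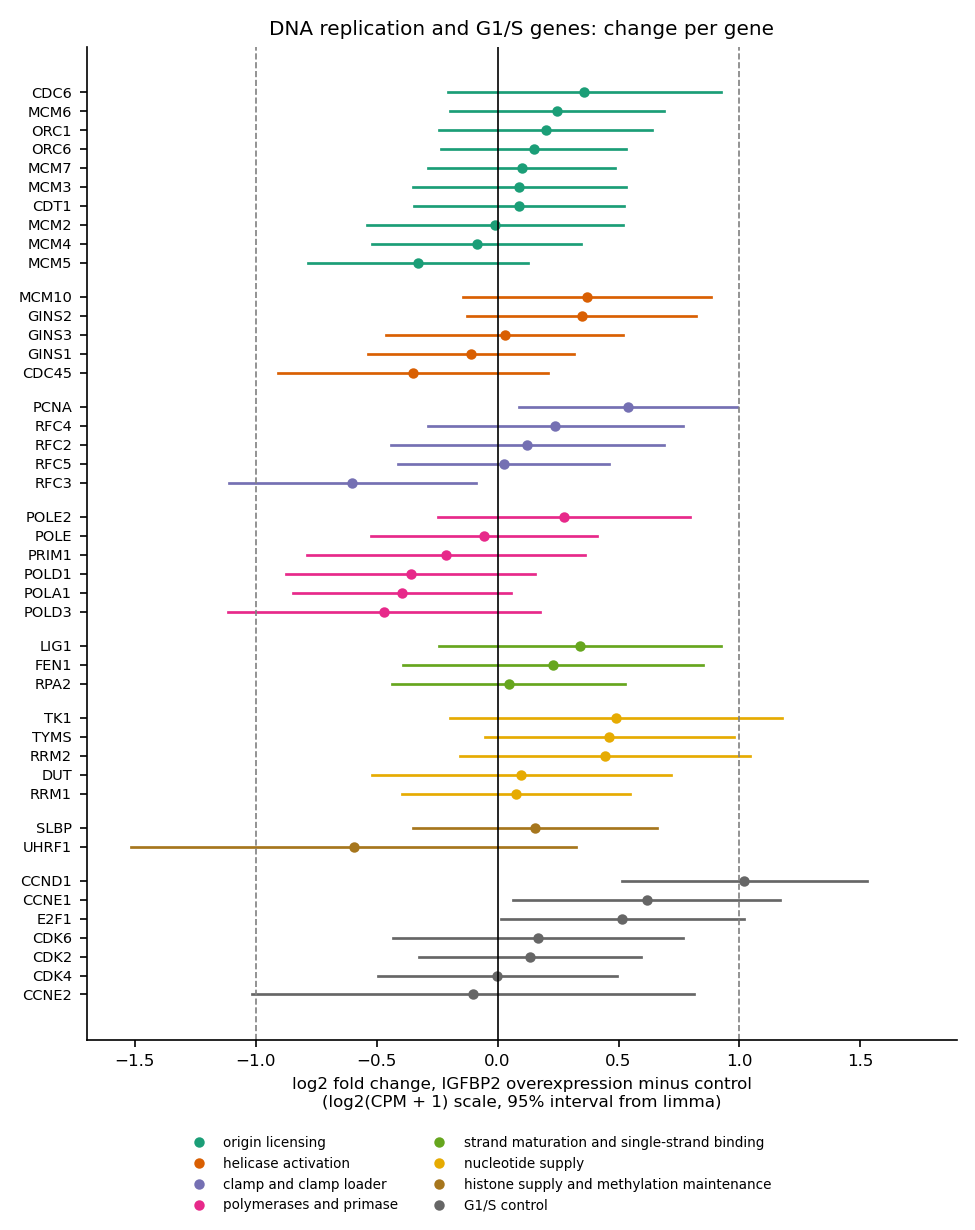
Log2 fold change of each of the 43 genes (x axis, IGFBP2 overexpression minus control on the log2(CPM + 1) scale) with its 95% interval from limma, in blocks and colours by role, with dashed lines at a 2-fold change. Most intervals cross 0, and CCND1 has the point farthest from 0, at 1.02.

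The mean level over the 43 genes, on the log2(CPM + 1) scale, was 5.96, 5.55 and 5.80 in control replicates 1, 2 and 3. It was 5.87, 5.86 and 5.87 in the overexpression replicates. The overexpression libraries were therefore nearly equal, with an SD of 0.0057 (n = 3), inside the range of the controls, whose SD was 0.21 (n = 3). The difference of the group means was 0.10, and without control replicate 2 it was -0.01. In the same libraries, which were normalized over all genes, the mean over all genes ran from 5.09 to 5.14. That range therefore does not measure how unusual the spread of the 43 genes is.

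Control replicate 2 stood apart for this module. It was the lowest of the 6 libraries for 20 of the 43 members (46.5%), against 18.0% of all genes, and the lowest of the 3 controls for 30 (69.8%, against 32.4%). The nucleotide supply genes, for example, had a mean level of 7.65, 6.87 and 7.27 in the controls and of 7.56 to 7.59 in the overexpression libraries. A list of 32 mitotic genes, from CCNB1 to TOP2A, had the same library as its lowest control for 29 genes. Its mean level was 7.05, 6.47 and 6.89 in the controls and 6.65 to 6.74 in the overexpression libraries. This library had 3530444 reads on listed genes, and what set its levels was not tested. The SD on the log2 scale was larger among the controls than among the overexpression libraries for 33 of the 43 members (76.7%), against 61.0% of all genes. The mitotic list shared this, with 25 of 32 genes (78.1%).

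**Figure D2:**
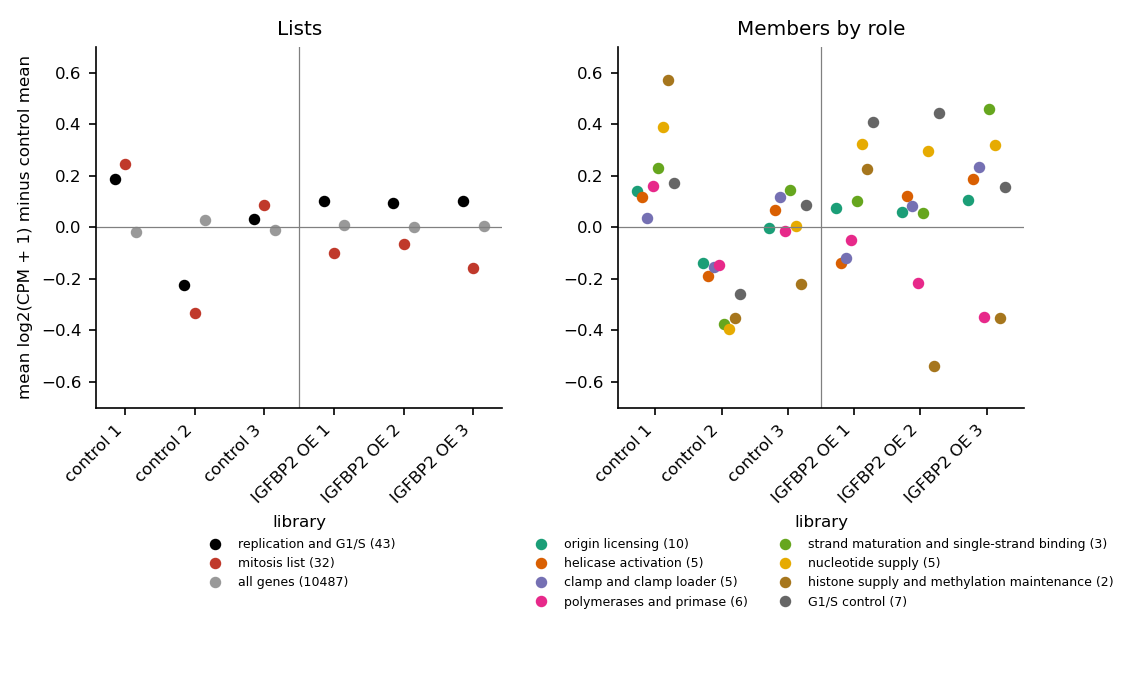
Mean log2(CPM + 1) in each library less the mean of the 3 control libraries (y axis), for the replication and G1/S genes, the mitosis list and all genes (left) and for the members by role (right), each point being 1 library. The replication genes and the mitosis list are lowest in control replicate 2, and the overexpression libraries lie between the control extremes for the replication genes.

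The largest log2 fold change of the 43 members, and their smallest p-value, belonged to a single gene of G1/S control. CCND1 (ENSG00000110092), which encodes cyclin D1, the growth factor-responsive partner of CDK4 and CDK6, lies on the plus strand at chr11:69641156-69654474. It was at 150.3, 133 and 94.2 CPM in the controls and at 267, 272 and 219 CPM in the overexpression libraries. All overexpression libraries were above all controls, with means of 126 ± 28.7 and 253 ± 29.5 CPM (SD, n = 3 in each group), a ratio of 2.01. The log2 fold change was 1.02 (standard error 0.22, 95% interval 0.51 to 1.53). Its unadjusted p was 0.00141 and its adjusted p was 0.106 with limma, so it did not pass the threshold. CCND1 did pass with limma voom on recovered reads (adjusted p = 0.016), with a mean-variance trend (adjusted p = 0.0096) and with a pseudocount of 5 (adjusted p = 0.0326). These settings called 1.34%, 1.53% and 1.23% of all genes, and 0.858%, 0.896% and 0.801% as higher. CCND1 was the only member that each of the 3 called. Over the 15 alternatives the adjusted p ranged from 0.0096 to 0.346, and the log2 fold change from 0.83 to 1.16. The highest adjusted p came without overexpression replicate 1, a fit that called 12 of all genes.

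The kinases that cyclin D1 binds did not show such a difference. CDK4 was at 106, 119 and 169 CPM in the controls and 122, 128 and 137 CPM in the overexpression libraries, inside the control range. Its log2 fold change was -0.00062 (95% interval -0.49 to 0.49), and its sign turned under upper quartile scaling. CDK6 was at 52.4, 38.1 and 31.1 CPM in the controls and 58.5, 44.9 and 33.8 CPM in the overexpression libraries, with overlapping groups and a log2 fold change of 0.17 (95% interval -0.43 to 0.77). With 1 library left out this ranged from -0.02, without overexpression replicate 1, to 0.36, without control replicate 1. Each CDK6 group spanned a similar range, so the highest and lowest libraries of each group differed more than the group means.

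CCNE1, which encodes cyclin E1, the partner of CDK2 at the G1/S transition, had CPM of 46.6, 28.9 and 53.4 in the controls and 69.0, 60.7 and 63.7 in the overexpression libraries. The groups did not overlap, and the log2 fold change was 0.62 (95% interval 0.06 to 1.17, adjusted p = 0.329). Without control replicate 2 it was 0.36, and without control replicate 3 it was 0.79. The related gene CCNE2 ran from 10.01 to 27.3 CPM in the controls and from 8.87 to 23.2 CPM in the overexpression libraries, a log2 fold change of -0.10. CDK2 itself was at 133, 116 and 172 CPM in the controls and 156, 142 and 160 CPM in the overexpression libraries. All 3 overexpression values of CDK2 fell inside the control range, and its log2 fold change was 0.13 (95% interval -0.32 to 0.59), which was 0.0081 without control replicate 2 and 0.29 without control replicate 3.

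E2F1, the transcription factor whose own promoter carries the window printed above, was at 38.2, 30.0 and 46.1 CPM in the controls and 47.6, 64.9 and 51.2 CPM in the overexpression libraries. The groups met almost edge to edge without overlap, at 46.1 and 47.6 CPM. The log2 fold change was 0.51 (95% interval 0.01 to 1.02, adjusted p = 0.374). With 1 library left out it ranged from 0.36, without control replicate 2, to 0.66, without control replicate 3. The unadjusted p from limma was 0.0456 with all libraries and 0.145 without control replicate 2.

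**Figure D3:**
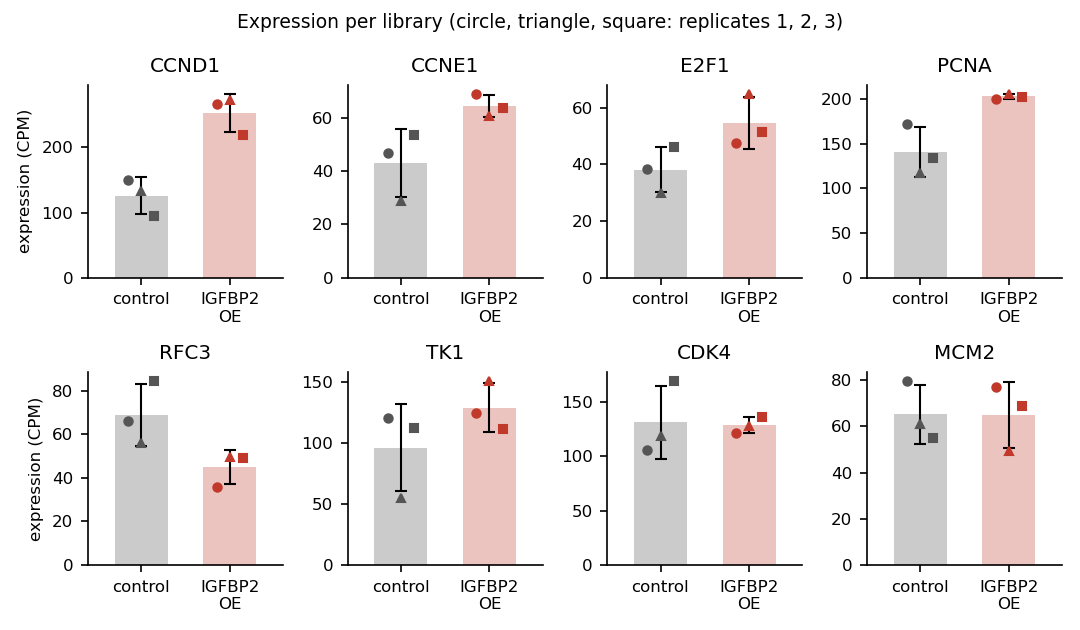
Expression in CPM (y axis, from 0) of 8 genes in control and IGFBP2 overexpression (OE) cells. Bars are group means, error bars the SD of 3 libraries and symbols the libraries. For CCND1 the overexpression libraries, at 219 to 272 CPM, are all above the controls, at 94.2 to 150.3 CPM, while for CDK4 and MCM2 the groups overlap.

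Origin licensing genes had log2 fold changes from -0.33 to 0.36, with a median of 0.09. Of the 10, 0 had an unadjusted p under 0.05, beside 13.0% of all genes. The interval of each of the 10 lay within a 2-fold change, as did that of 77.3% of all genes. MCM2, a subunit of the loaded helicase, was at 79.7, 61.2 and 55.0 CPM in the controls and 77.2, 49.4 and 68.7 CPM in the overexpression libraries, with a log2 fold change of -0.01 (95% interval -0.54 to 0.52). Its groups overlapped, the lowest library being an overexpression one and the highest a control. The 6 subunits MCM2 to MCM7 had log2 fold changes from -0.33 (MCM5) to 0.25 (MCM6), 3 on either side of 0, with a median of 0.04. CDC6, the ATPase that brings the helicase to the origin complex, had the largest difference of the licensing group. It was at 51.1, 27.0 and 42.5 CPM in the controls and 48.7, 46.5 and 55.5 CPM in the overexpression libraries, a log2 fold change of 0.36 (95% interval -0.21 to 0.92). The groups overlapped, and the log2 fold change was 0.10 without control replicate 2 and 0.55 without control replicate 1. ORC6, a subunit of the origin recognition complex, had groups that did not overlap, at 42.3 to 45.7 and 47.2 to 49.3 CPM, but its log2 fold change was only 0.15. ORC1 had a log2 fold change of 0.20 and CDT1, whose protein loads the helicase with CDC6, of 0.09.

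The factors that turn the loaded MCM ring into an active helicase varied in both directions. MCM10, which acts at helicase activation, was at 65.9, 45.3 and 66.3 CPM in the controls and 64.3, 91.3 and 73.6 CPM in the overexpression libraries. The groups overlapped, and the log2 fold change was 0.37 (95% interval -0.14 to 0.88). It was 0.19 without control replicate 2, 0.23 without overexpression replicate 2 and 0.48 without overexpression replicate 1. CDC45 had a log2 fold change of -0.35 and GINS2, a subunit of the GINS complex, of 0.35, while GINS1 and GINS3 were at -0.11 and 0.03. The 5 intervals all lay within a 2-fold change, as did those of 77.3% of all genes.

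The sliding clamp and its loader held the 2 members outside G1/S control with an unadjusted p under 0.05, in opposite directions. PCNA, the clamp, was at 172, 117 and 134 CPM in the controls and at 200.4, 206 and 202 CPM in the overexpression libraries. The groups did not overlap, and the overexpression libraries were close together, at 203 ± 2.82 CPM against 141 ± 28.1 CPM (SD, n = 3 in each group). The log2 fold change was 0.54 (95% interval 0.09 to 0.99, adjusted p = 0.294). With 1 library left out it ranged from 0.42, without control replicate 2, to 0.69, without control replicate 1. The unadjusted p from limma was 0.0238 with all libraries and 0.074 without control replicate 2. RFC3, a subunit of the loader, was at 66.2, 56.2 and 84.5 CPM in the controls and at 35.9, 49.7 and 49.3 CPM in the overexpression libraries. It was the only one of the 43 genes whose overexpression libraries were all below the controls (2.33% of members, against 8.61% of all genes), and its log2 fold change was -0.60 (95% interval -1.11 to -0.09, adjusted p = 0.301). The other loader subunits did not share this pattern of values, with log2 fold changes of 0.12 for RFC2, 0.24 for RFC4 and 0.03 for RFC5 and overlapping groups in each.

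Of the 6 polymerase and primase genes, 5 had a log2 fold change below 0, and the median was -0.29. POLD3, an accessory subunit of polymerase delta, was at 57.3, 55.4 and 58.6 CPM in the controls and 45.2, 58.7 and 25.6 CPM in the overexpression libraries. One overexpression library was above every control, so the log2 fold change of -0.47 (95% interval -1.12 to 0.17) rested on replicates 1 and 3, and it was -0.14 without overexpression replicate 3 and -0.73 without overexpression replicate 2. POLA1, the catalytic subunit of polymerase alpha, ranged from 43.4 to 52.8 CPM in the controls and from 33.2 to 44.8 CPM in the overexpression libraries, a log2 fold change of -0.40 with groups that just overlapped. POLD1 and PRIM1, the catalytic subunits of polymerase delta and of primase, were at -0.36 and -0.21, and POLE, that of polymerase epsilon, was at -0.06. The one gene above 0 was POLE2, at 0.28, but it had the fewest reads of the 43, down to 12 in a library. None of the 6 had an unadjusted p under 0.05, beside 13.0% of all genes.

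LIG1, the ligase that seals the fragments of the lagging strand, was at 50.2, 31.4 and 46.1 CPM in the controls and 47.2, 44.5 and 71.6 CPM in the overexpression libraries. The groups overlapped, with a log2 fold change of 0.34 (95% interval -0.24 to 0.93). It was 0.14 without control replicate 2, 0.13 without overexpression replicate 3 and 0.47 without control replicate 1. FEN1, the nuclease that trims those fragments, and RPA2, a subunit of the single-strand binding complex, had log2 fold changes of 0.23 and 0.05, also with overlapping groups.

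All 5 genes of deoxynucleotide supply had a log2 fold change above 0, with a median of 0.44. Of the 5, 0 had an unadjusted p under 0.05, beside 13.0% of all genes. TK1, thymidine kinase of the salvage pathway, was at 121, 55.1 and 112 CPM in the controls and 124, 151 and 112 CPM in the overexpression libraries. Only control replicate 2 was far from the others. The log2 fold change of 0.49 (95% interval -0.20 to 1.18) was 0.14 without that library and 0.69 without control replicate 1. TYMS, which makes thymidylate, was at 193, 116 and 184 CPM in the controls and 218 to 226 CPM in the overexpression libraries, groups that did not overlap, with a log2 fold change of 0.46. RRM2, the regulated subunit of ribonucleotide reductase, was at 242, 116 and 172 CPM in the controls and 219 to 246 CPM in the overexpression libraries, a log2 fold change of 0.44. In both genes the overexpression libraries were close together, and control replicate 2 was the lowest library. Its partner subunit RRM1 was at 0.08 and DUT, which removes dUTP, at 0.10.

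UHRF1, which guides DNA methylation to newly copied strands, had the widest standard error of the 43, 0.41. It was at 19.3, 6.40 and 9.30 CPM in the controls and 10.9, 4.196 and 6.24 CPM in the overexpression libraries, and its log2 fold change was -0.60 (95% interval -1.51 to 0.32). It was -0.19 without control replicate 1, -0.92 without control replicate 2, -0.92 without overexpression replicate 1 and -0.32 without overexpression replicate 2. The highest library of each group was replicate 1, and the groups overlapped. With a block for the replicate number in limma, the standard error was 0.19 and the adjusted p was 0.251, against 0.588 without the block. SLBP, which binds the stem-loop of histone mRNA, ranged from 28.7 to 44.2 CPM in the controls and from 34.2 to 46.8 CPM in the overexpression libraries, a log2 fold change of 0.15.

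**Figure D4:**
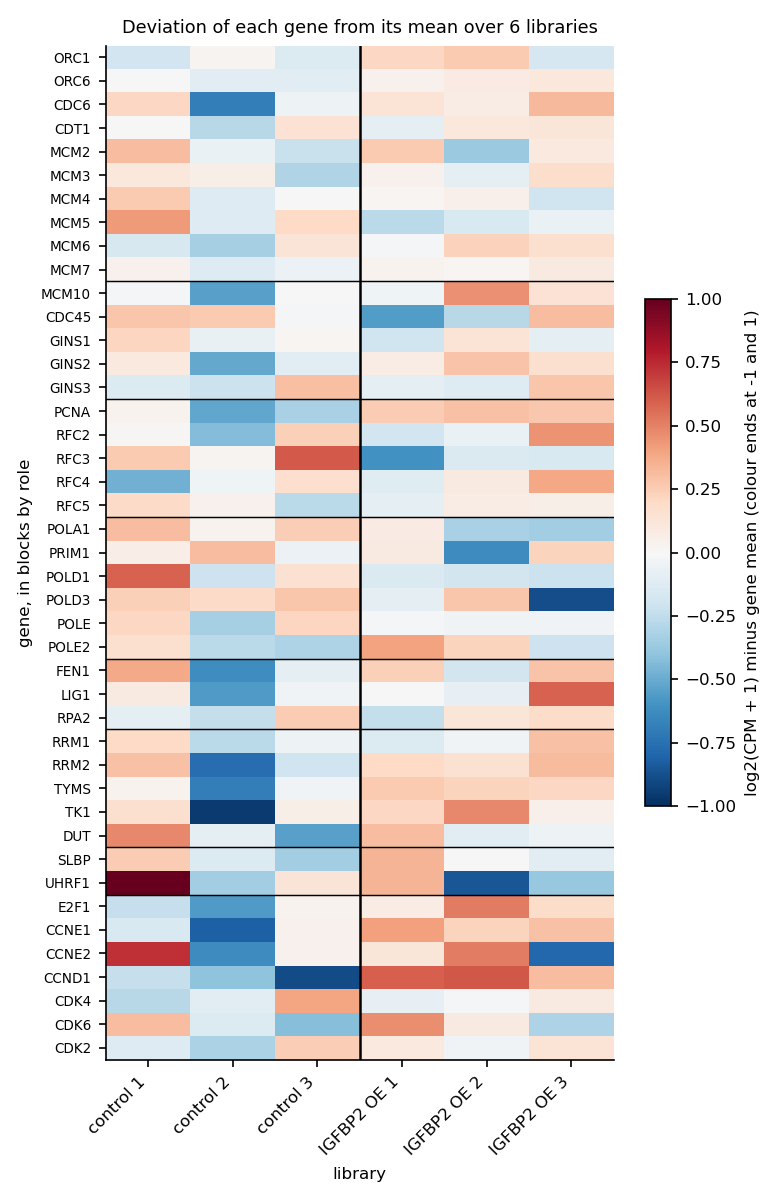
Deviation of each of the 43 genes (rows, in blocks by role) from its own mean over the 6 libraries (columns), in log2(CPM + 1), from blue (lower) to red (higher), with the colour scale ending at -1 and 1. Control replicate 2 is blue in many rows, TK1, RRM2 and CCNE1 among them, and CCND1 turns from blue to red between the groups.

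Counting groups that did not overlap gave 6 members with all overexpression libraries above all controls (CCND1, CCNE1, E2F1, PCNA, TYMS and ORC6), or 14.0% against 9.43% of all genes. Each of these had an exact permutation p of 0.1 (two-sided), the smallest that 3 libraries against 3 can give. The 19 members with an E2F-type match in the promoter entry had a median log2 fold change of 0.10, from -0.60 (RFC3) to 0.54 (PCNA), and the 17 members without a match in their entry a median of 0.15, from -0.36 to 0.62. The ranges of the matched and unmatched genes overlapped widely.

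Other genes of the pathway were read from 3 further lists and from the mitotic list. Of these, 0 of 114 measured genes had an adjusted p under 0.05, beside 0.629% of all genes. Among 35 further replication factors the median log2 fold change was -0.03, and the smallest p-values were those of RNASEH2B, a subunit of the nuclease that removes ribonucleotides from DNA (0.47), MCM8 (-0.32) and POLE4 (0.32). Among 16 genes of nucleotide and chromatin supply the median was -0.10, with DCK (0.73), NT5C3A (-0.47) and ASF1B, a histone chaperone (0.41), at the smallest p-values. DCK had a control mean of 2.94 CPM and an overexpression mean of 5.33 CPM, with overlapping groups. Its log2 fold change was 0.45 without control replicate 1 and 0.39 with a pseudocount of 5. In the other direction, it was 1.00 without control replicate 2 and 1.00 with limma voom.

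Among 31 further genes of G1/S control the median log2 fold change was -0.0041, and 3 of them stood nearest to the threshold. E2F7, which encodes a repressing member of the E2F family, was at 6.44, 5.01 and 6.87 CPM in the controls and 2.34, 2.58 and 1.64 CPM in the overexpression libraries. All overexpression libraries were below all controls, and the log2 fold change was -1.16 (standard error 0.20) with an adjusted p of 0.0503 from limma, just above the threshold. Its log2 fold change ranged from -1.45 with a pseudocount of 0.1 to -0.63 with a pseudocount of 5. Under the other settings its adjusted p ran from 0.0492 with median-of-ratios scaling to 0.214 with limma voom. E2F7 rested on few reads, as 1 read was 0.32 to 0.39 CPM in the overexpression libraries. Its standard error was 0.49 with limma voom and 0.40 with a mean-variance trend. CCND3, cyclin D3, was at 41.3, 36.2 and 55.0 CPM in the controls and 70.2, 72.3 and 67.3 CPM in the overexpression libraries, groups that did not overlap, with a log2 fold change of 0.67 (adjusted p = 0.229). MYBL2, an S-phase transcription factor, was at 223, 144 and 204 CPM in the controls and at 290.03, 279 and 280 CPM in the overexpression libraries, a log2 fold change of 0.59 (adjusted p = 0.289). The log2 fold change of MYBL2 was 0.41 without control replicate 2 and 0.72 without control replicate 1.

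For the 32 mitotic genes the median log2 fold change was -0.07, with 21 below 0, beside 0.10 and 14 of 43 for the replication and G1/S genes. The difference between the lists was not tested. The smallest p-values were those of CENPF, a kinetochore protein (-0.51), HMMR (-0.56) and MKI67, the proliferation marker Ki-67 (-0.42). MKI67 was at 313, 196 and 317 CPM in the controls and 199 to 206 CPM in the overexpression libraries, so control replicate 2 was level with the overexpression libraries while the other controls were above them. The log2 fold change of MKI67 was -0.64 without control replicate 2 and -0.30 without control replicate 3. That of HMMR was -0.22 without overexpression replicate 3 and -0.70 without overexpression replicate 1.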

How the data were processed

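Total RNA of 6 samples, 3 control and 3 IGFBP2 overexpression, was made into 3′ end libraries. The authors used bbduk for trimming, STAR for alignment to hg38 and htseq-count for gene counts (HTSeq 0.9.1 in the submitters' processing notes). The authors then normalized with edgeR, kept genes with a mean CPM over 5 in either condition and deposited log2(CPM + 1). Values were whole multiples of 1 read in 100.0% of cases (within 0.02 of a whole number), so reads were recovered for scaling and voom.

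limma 3.58.1 in R 4.3.3 compared the groups on the log2 scale the authors deposited, over all 10487 genes, with no covariate and no trend (Benjamini-Hochberg adjusted p under 0.05). Symbols and gene positions came from GENCODE 44 (GRCh38, as in the authors' alignment), with 10462 identifiers matched. The fit was first tested on simulated data of 10487 genes, 200 of them changed, with an assumed spread between replicates. That spread was the same for every gene and was not estimated from these libraries. The recovered shares therefore belong to the simulation and may differ in these data. At an adjusted p under 0.05 it recovered 37% of the 2-fold and 98% of the 4-fold changes, with 5 false calls. A member that changed 2-fold could therefore stay above the threshold.

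The members and lists were chosen with earlier results of these data known. Values per library are given for the 5 members with the smallest p-values, the 3 largest differences in either direction, the largest in each of 8 role groups, and E2F1, CCND1, CDK4, CDK6, CCNE1, CDK2, PCNA and MCM2. In each further list, the 3 smallest p-values are named. Counts cover reads on listed genes only. The 15 alternatives changed the scaling, the pseudocount, the filter or the variance model, added a block for the replicate number, or left out 1 library each.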

Additional observations from a re-analysis of the deposited data

How the results depend on the processing

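The log2 fold change of IGFBP2 passed the threshold under all 15 alternatives (2.35 to 2.97). The number of members past the threshold, 0, was 1 (CCND1) with a pseudocount of 5, a mean-variance trend or limma voom. The log2 fold change of CCND1 was 1.00, 1.02 and 1.01 in those 3 fits. At an unadjusted p under 0.05 the count was 5. It was 0 at an adjusted p under 0.01, which 6 of all 10487 genes passed. With any library left out it was also 0, but those fits called only 12 to 79 of all genes, beside 66 with every library. For the further pathway genes, 0 became 1 (E2F7) with median-of-ratios scaling, which called 70 of all genes. At an unadjusted p under 0.05 their count was 7 of 114, a threshold that 13.0% of all genes passed. The cause of these shifts was not tested. The median log2 fold change of the members ranged from 0.05 to 0.18 and the difference of their mean levels from -0.01 to 0.19 with 1 library left out. Values near 0 changed sign. MCM2 was 0.012 with upper quartile scaling and -0.14 to 0.17 with 1 library left out. CDK4 was 0.0071 when scaled by library size alone, 0.023 with the upper quartile, 0.013 with limma voom and -0.14 to 0.20 with 1 library left out, and CDK6 was -0.024 to 0.36. Of 225 combinations of a gene and an alternative for the 15 genes given in full, 211 kept direction and side of the threshold. With the replicate block, which called 55 of all genes, 0 members passed (median log2 fold change 0.10). Over all genes, deviations from the group means correlated at 0.17, -0.06 and 0.08 for numbers 1, 2 and 3. These values cannot settle whether libraries of the same number shared a culture or preparation, which the sources used here do not state. Genes with few reads, such as POLE2 (12 to 32) and UHRF1 (13 to 87), and 3 libraries per group limit what could be detected.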
